A study of Mus musculus with 28 samples.

Results

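Dppa4 and Dppa2 are neighbouring genes on mouse chromosome 16 (mm10) that lie at the right-hand end of a broad H3K9me2 domain, and the position of that end relative to the 2 genes is described here. The pair makes up 2 of the 21755 protein-coding genes on the 20 chromosomes 1 to 19 and X. The genes were chosen on measured values, namely whether their starts lay inside or outside domains in the same lists. Their own pattern is therefore given as a description with no test. Dppa4 (ENSMUSG00000058550.15, chr16:48283733-48294237, plus strand) spans 10.5 kb, and Dppa2 (ENSMUSG00000072419.5, chr16:48303908-48319723, plus strand) spans 15.8 kb. Their starts are 20.2 kb apart, 9.67 kb separates the end of Dppa4 from the start of Dppa2, and both are read in the same direction.

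DPPA2 and DPPA4 are DNA-binding proteins with a SAP domain that act as a heterodimer. They are present in pluripotent cells and early embryos and activate Dux, and through it Zscan4 genes and other genes of the 2-cell embryo. H3K9me2 is a histone mark of repressed chromatin that forms broad domains and is deposited by the methyltransferases EHMT2 (G9a) and EHMT1 (GLP).

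H3K9me2 was profiled by ULI-NChIP (native immunoprecipitation of chromatin from few cells) in mouse embryonic stem cells (mESCs) of a BL6/129 hybrid background (KH2 line). All cells, controls included, carried the EHMT2-dTAG allele, in which endogenous Ehmt2 is fused to a degron with an HA tag and an mCherry reporter. The sorted cells also carried a MERVL-GFP reporter, in which the promoter of the MERVL retrovirus drives GFP, and were split by GFP. Cells without GFP are called mESCs and cells with GFP are called 2CLCs, for 2-cell-like cells, which arise at low frequency in mESC cultures and express transcripts of the 2-cell embryo. They received the degrader dTAG-13 (dTAG) or its solvent DMSO for 72 h, which gave the conditions mESC DMSO, mESC dTAG, 2CLC DMSO and 2CLC dTAG, each with 3 immunoprecipitation and 3 input libraries. Unsorted EHMT2-dTAG mESCs after 24 h of DMSO gave 2 libraries of each kind, for 28 in all. The sorted cells came from 1 clone grown on fibroblast feeders, so clones cannot be compared. To shorten the sort, cultures received TTNBP, an agonist of retinoic acid receptors. The labels limit it to 2 of the replicates without naming them and the methods do not, so its part in any difference cannot be told apart.

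The data used here were lists of domain positions, 1 for each sorted condition. One more list carries no condition in its name. It was assigned to no group and is called the unnamed set. With 1 list per condition there was no replicate spread and no test, the depth behind each edge is unknown, and an edge is resolved no finer than the 5 kb step on which the domains were called. Differences between lists are stated as differences between lists and not between conditions. The paper reports that EHMT2 depletion lowered H3K9me2 globally in both cell types. A domain found in a dTAG list alone is therefore not read as a gain of the mark. Levels of transcripts or proteins, including EHMT2 itself, were not analysed here, so neither the depletion of EHMT2 nor the sort could be checked in these data.

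The 60 bases centred on the right-hand end of the left domain, the edge that runs through or beside the pair, are shown because each result below turns on where this edge lies. Capitals mark the 30 bases inside the domain and lower case the 30 bases beyond it, on the plus strand of mm10.
mESC DMSO left edge, chr16:48254819-48254878: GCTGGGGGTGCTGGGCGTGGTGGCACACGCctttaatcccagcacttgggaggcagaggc
mESC dTAG left edge, chr16:48324819-48324878: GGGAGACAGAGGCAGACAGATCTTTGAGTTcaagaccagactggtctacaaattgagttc
2CLC DMSO left edge, chr16:48284819-48284878: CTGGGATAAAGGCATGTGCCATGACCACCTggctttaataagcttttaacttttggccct
2CLC dTAG left edge, chr16:48289819-48289878: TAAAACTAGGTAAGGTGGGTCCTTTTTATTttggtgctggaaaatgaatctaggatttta
unnamed set left edge, chr16:48280186-48280245: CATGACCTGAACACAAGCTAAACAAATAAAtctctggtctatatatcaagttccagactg
The mESC DMSO and mESC dTAG edges fell in sequence that is repeat-masked in the reference over all 60 bases, the 2CLC dTAG edge in sequence with 0 masked bases, and the 2CLC DMSO and unnamed edges in sequence with 25 and 22 masked bases. The edges lie on the grid of the domain calls, so these bases mark the grid position and not a site of any factor.

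In mESC DMSO both genes lay outside domains. The domain to the left (chr16:47764850-48254848, 490 kb) ended 28.9 kb before the start of Dppa4. In mESC dTAG the domain to the left (chr16:46609851-48324848, 1715 kb) ran through both genes and ended 5.12 kb past the end of Dppa2, so that Dppa4 and Dppa2 were each covered over 100% of their length. In 2CLC DMSO the domain (chr16:46219852-48284848, 2065 kb) ended 1.12 kb into Dppa4, in intron 1, and covered 10.6% of the gene. In 2CLC dTAG it (chr16:46614851-48289848, 1675 kb) ended 6.12 kb into Dppa4, in intron 4, and covered 58.2% of the gene. Introns are numbered on the coding transcript of Dppa4 with 7 exons. Dppa2 had 0% of its length in domains in the 3 sets other than mESC dTAG.

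**Figure D1:**
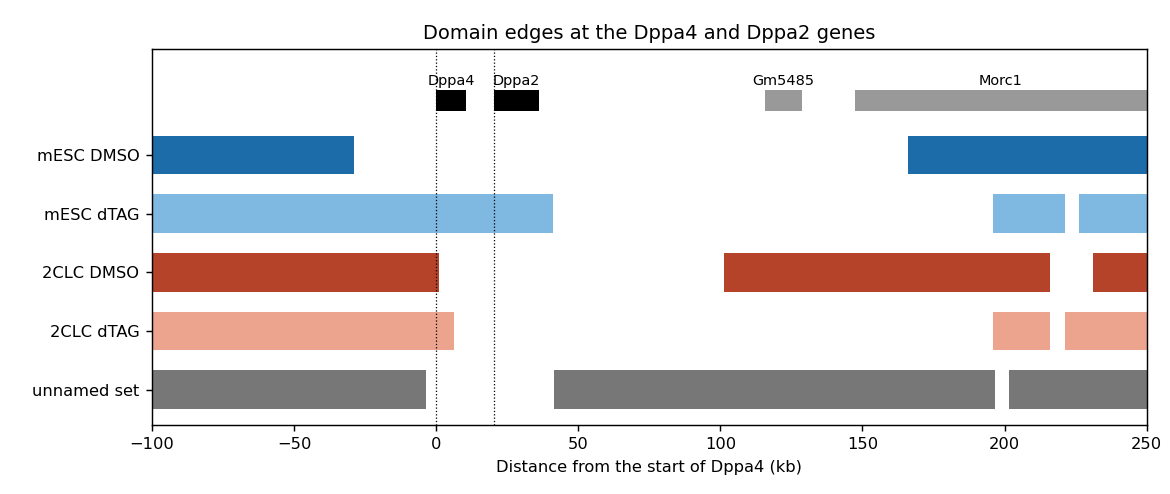
Domains of the 4 sorted sets and the unnamed set (bars, 1 row per set) against the distance from the start of Dppa4 in kb, with gene bodies above and dotted lines at the starts of Dppa4 and Dppa2. The left domain ended 28.9 kb before Dppa4 in mESC DMSO, inside Dppa4 in both 2CLC sets and past Dppa2 in mESC dTAG.

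The order of the left edge along the chromosome was therefore mESC DMSO, 2CLC DMSO, 2CLC dTAG and mESC dTAG. The first and last were 70 kb (14 bins) apart. The 2CLC DMSO and 2CLC dTAG edges were neighbours in this order and differed by 5 kb, which is 1 bin and the smallest step the lists can show. The 2CLC DMSO edge lay 30 kb (6 bins) beyond the mESC DMSO edge, and the 2CLC dTAG edge lay 35 kb (7 bins) short of the mESC dTAG edge. Between DMSO and dTAG the edge was thus 70 kb further right in mESCs and 5 kb further right in 2CLCs. For scale, 14.2% of the 8646 domain edges in mESC DMSO were passed by at least 70 kb by a dTAG domain. In 2CLC DMSO 37.0% of the 8492 edges were passed by at least 5 kb. Edges in no dTAG domain, 50.5% in mESCs and 47.8% in 2CLCs, could not be passed and stay in these totals. The pair was chosen with this contrast in view, and nothing is read from these shares.

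The depth of each start in its domain followed from this order. The start of Dppa4 lay 28.9 kb outside the nearest domain in mESC DMSO and 41.1 kb inside in mESC dTAG. It lay 1.12 kb inside in 2CLC DMSO, less than 1 bin, and 6.12 kb inside in 2CLC dTAG. In mESCs the start of Dppa2 lay 49.1 kb outside with DMSO and 20.9 kb inside with dTAG. In 2CLCs it lay outside with both, by 19.1 kb with DMSO and 14.1 kb with dTAG. In 2CLC DMSO, 8.47% of the 5054 starts in domains were within 5 kb of an edge, as that of Dppa4 was, and the median depth was 115.9 kb. In 2CLC dTAG, 22.7% of the 5767 starts in domains were within 10 kb, as that of Dppa4 was, and the median was 43.6 kb. With every domain trimmed by 1 bin at both ends, Dppa4 was in domains in 2 sorted sets in place of 3, mESC dTAG and 2CLC dTAG.

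**Figure D2:**
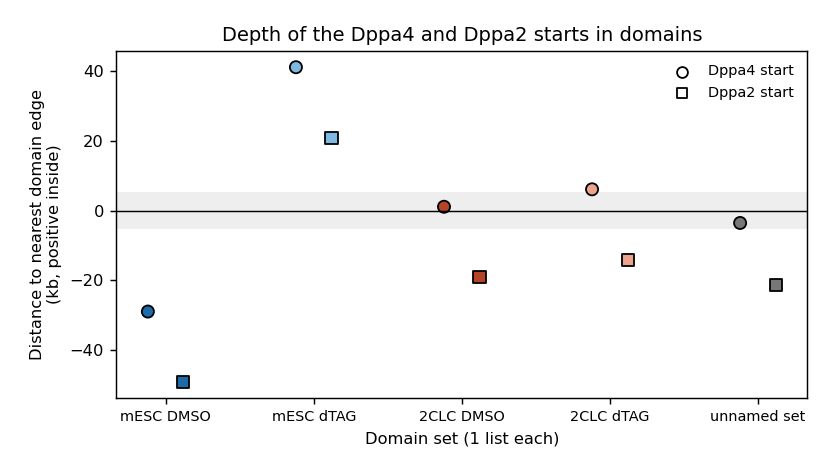
Distance in kb from the start of Dppa4 (circles) and Dppa2 (squares) to the nearest domain edge in each set, 1 list each, positive inside a domain. The grey band marks 5 kb, 1 bin, to each side of an edge, and the Dppa4 start falls in it in 2CLC DMSO and in the unnamed set.

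Where a gene begins depends on the annotation for Dppa2 and not for Dppa4. GENCODE lists 2 coding transcripts of Dppa2, one with 8 exons from the start given above and one with 7 exons from position 48310477. RefSeq starts Dppa2 at 48310274, 6.37 kb further right. This start was also inside a domain in mESC dTAG only. Dppa4 has 3 GENCODE transcripts, of which those with 7 and 6 exons are coding and one with 2 exons is a retained intron, and the RefSeq start is 2 bases from the GENCODE one.

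Of all 21755 protein-coding starts, 22.3% (DMSO) and 23.6% (dTAG) were in a domain in mESCs, and 23.2% (DMSO) and 26.5% (dTAG) in 2CLCs. Starts outside domains in mESC DMSO and inside in mESC dTAG, as those of Dppa4 and Dppa2 were, made up 6.32% (1375 genes). Starts outside in 2CLC DMSO and inside in 2CLC dTAG, as neither was, made up 7.52% (1637 genes). The pattern of Dppa2, inside in mESC dTAG only, was found for 366 genes (1.68%), and that of Dppa4, inside in each sorted set but mESC DMSO, for 337 genes (1.55%). Of those 337 genes, 91 (27%) had their start within 5 kb of an edge in 2CLC DMSO, as Dppa4 had.

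Other genes shared these patterns at similar distances from an edge. Likeness was measured as the absolute difference in distance to the nearest edge, summed over the 4 sorted sets, among genes with the same pattern that are on other chromosomes or over 2 Mb away. Of 365 other genes with the pattern of Dppa2, the nearest were Osgepl1 (21.1 kb), Slc25a24 (25.7 kb), Lxn (26 kb), Zfp607a (26.9 kb) and Dbf4 (30 kb). The start of Osgepl1, for example, lay 41.5 kb outside a domain in mESC DMSO and 8.49 kb inside in mESC dTAG, and in 2CLCs 18.5 kb (DMSO) and 13.5 kb (dTAG) outside. Of 336 others with the pattern of Dppa4, the nearest were Lnpep (21.1 kb), Dcbld2 (35 kb), Lsm8 (35.6 kb), Mycbp2 (36.8 kb) and Zfp418 (37.2 kb). Lnpep lay 36.9 kb outside a domain in mESC DMSO, 33.1 kb inside in mESC dTAG and 3.06 kb inside in both 2CLC sets. Dcbld2 is on chromosome 16 as well, at chr16:58408443-58469727.

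To the right of the pair the next domain began in or before Morc1, a gene for an ATPase that silences transposons in male germ cells. It began 160.1 kb past the end of Dppa2 in both dTAG sets, 130.1 kb past it in mESC DMSO and 65.1 kb past it in 2CLC DMSO. The starting points in the 2 dTAG sets were the same base, inside Morc1. The domain-free interval that borders or holds the pair was 195 kb wide (DMSO) and 155 kb wide (dTAG) in mESCs, and 100 kb (DMSO) and 190 kb (dTAG) in 2CLCs. The median interval between neighbouring domains was 45 kb (DMSO) and 60 kb (dTAG) in mESCs, and 50 kb and 55 kb in 2CLCs. The interval at the pair was wider than 73.4% and 69.4% of all intervals in mESCs, and than 60.8% and 77.6% in 2CLCs. The dTAG lists held more domains over the genome, 7312 against 4323 with DMSO in mESCs and 8820 against 4246 in 2CLCs. Between DMSO and dTAG the interval at the pair was 40 kb narrower in mESCs and 90 kb wider in 2CLCs. Its right end lay 30 kb further right in mESC dTAG and 95 kb further right in 2CLC dTAG, beside the 70 kb and 5 kb of its left end. The mESC direction rested on a narrow domain: the domain that closed the interval on the right was 25 kb wide in mESC dTAG and 20 kb wide in 2CLC dTAG, and with domains under 50 kb dropped the interval was wider in dTAG in both states, by 85 kb in mESCs (280 kb against 195 kb) and by 115 kb in 2CLCs (215 kb against 100 kb). A stretch of 60 kb just right of Dppa2 (chr16:48324849-48384848) was outside domains in all 4 sorted sets.

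The left flank of the pair was mostly in domains and the right flank in part. In the 2 Mb to the left, domains covered 97.8% (DMSO) and 88.5% (dTAG) in mESCs, and 100% and 90% in 2CLCs. In the 2 Mb to the right they covered 69.5% (DMSO) and 46.8% (dTAG) in mESCs, and 74% and 44.2% in 2CLCs. Of the left flank 85.6% was in domains in all 4 sorted sets, and of the right flank 32%. Over chromosome 16 the shares were 56.4% (DMSO) and 48.8% (dTAG) in mESCs, and 56.5% and 50.8% in 2CLCs, so both flanks were above the chromosome in the DMSO sets, and the right flank was below it in the dTAG sets. On the right, 515 kb (25.8% of the flank) were in a domain in mESC DMSO and not in mESC dTAG, against 60.1 kb (3.01%) the other way. In 2CLCs these were 725 kb (36.2%) and 130 kb (6.5%). The 35 kb from chr16:48289849-48324848, which hold the end of Dppa4 and all of Dppa2, were in a domain in mESC dTAG only.

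**Figure D3:**
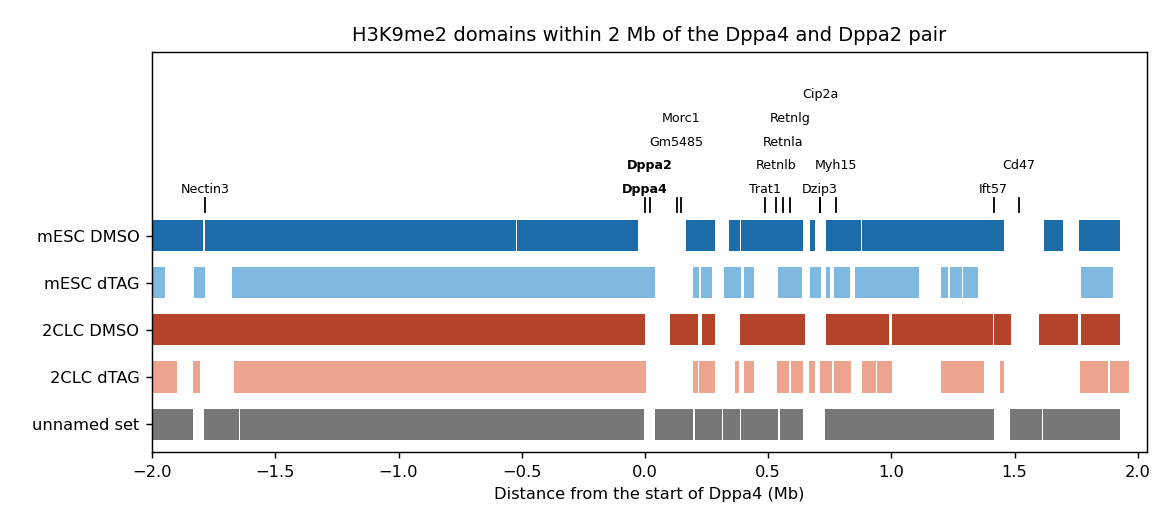
Domains of the 5 sets (bars, 1 row per set) within 2 Mb of the pair against the distance from the start of Dppa4 in Mb, with ticks at the starts of Dppa4, Dppa2 and the 12 flanking protein-coding genes. The left flank is filled over at least 88.5% in each sorted set and the right flank over 44.2% to 74%.

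In mESC DMSO the left flank was broken over 10 kb at chr16:46489852-46499851, which held the start of Nectin3. Nearer to the pair it was broken by a single bin of 5 kb (chr16:47759850-47764849). This nearer break began 523.9 kb before the start of Dppa4 and had a further domain to its left. The domain that ended before Dppa4 was counted from this nearer break, at 490 kb. The left domains of the other sorted sets had no break there and were 1675 to 2065 kb wide. Joining domains across gaps of at most 10 kb left Dppa4 and Dppa2 in the same sets.

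12 protein-coding genes start within 2 Mb of the pair, 1 to the left and 11 to the right. Just beyond the limit, Gm4737 starts 2128.7 kb to the left and was in domains in 4 sorted sets, and Bbx starts 2112.7 kb to the right and was in 0. Nectin3 (chr16:46387706-46498525), a cell adhesion protein of the nectin family, is the only one on the left. Its start was in a domain in mESC dTAG and 2CLC DMSO, and it lay 1.33 kb from an edge in both mESC sets, outside in DMSO and inside in dTAG. Its gene body was covered over 92.2% (DMSO) and 39.4% (dTAG) in mESCs, and 100% and 27.1% in 2CLCs. Of the 12 starts, 6 were in domains in each of the mESC sets, 8 in 2CLC DMSO and 2 in 2CLC dTAG. Among all genes the shares were 22.3% and 23.6% in the mESC sets and 23.2% (DMSO) and 26.5% (dTAG) in the 2CLC sets. The count in 2CLC dTAG turned on edges close to gene starts, since with domains extended by 1 bin it was 6 of 12, beside 30.6% of all genes. Genes of 1 region share domains, and these counts were not tested against the shares.

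Nearest on the right, Gm5485 (chr16:48399453-48412416) and Morc1 (chr16:48431237-48630900) had their starts in a domain in 2CLC DMSO only, 27.6 kb and 46.4 kb from its edge. In the other 3 sorted sets Gm5485 had 0% of its length in domains, whereas Morc1 was covered over 63.1% (DMSO) and 48.1% (dTAG) in mESCs, and 61.9% and 42.6% in 2CLCs. The set that held their starts was thus another than the set that held Dppa2. Trat1, an adaptor of the T cell receptor, and Retnlb, a resistin-like secreted protein, were covered over 100% in both DMSO sets and 0% in both dTAG sets. Their starts lay 97.2 kb and 108.0 kb inside the domain in mESC DMSO. Of the other resistin-like genes, Retnla was covered over 100% in all 4 sorted sets, and Retnlg over 100% in all but 2CLC dTAG, where its start was 2.23 kb outside.

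Further right, Dzip3, a ubiquitin ligase, and Cip2a, an inhibitor of the phosphatase PP2A, are read away from each other from neighbouring starts at positions 48994165 and 48994185. Both starts were in a domain in mESC dTAG only, 5.68 kb and 5.66 kb from its edge, which is the pattern of Dppa2. In 2CLC dTAG they lay 0.682 kb and 0.662 kb outside a domain that covered 97.4% of Cip2a. Myh15, a myosin heavy chain, had its start in domains in all 4 sorted sets, with 96.5% (DMSO) and 85.9% (dTAG) of its body covered in mESCs, and 100% and 68.2% in 2CLCs. Ift57, a component of intraflagellar transport, had its start inside in mESC DMSO only, and in 2CLC DMSO it was 0.614 kb outside a domain that covered 99.1% of the gene. The start of Cd47, a surface protein that inhibits phagocytosis, was outside domains in all 4 sorted sets.

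**Figure D4:**
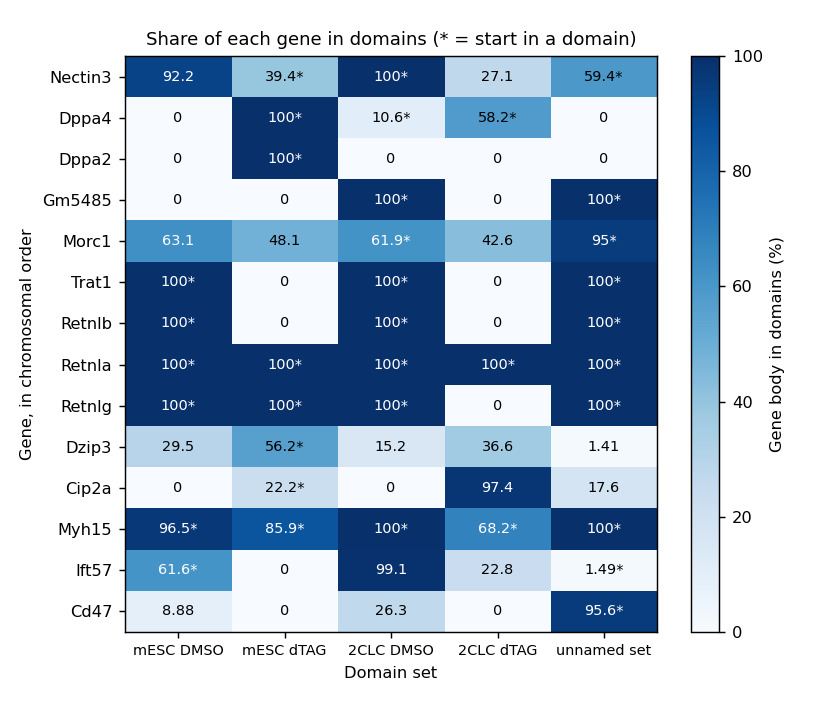
Percent of each gene body in domains, for Dppa4, Dppa2 and the 12 flanking protein-coding genes in chromosomal order (rows) and the 5 sets (columns), where an asterisk marks a start in a domain. Dppa2 is at 0 except for 100 in mESC dTAG, whereas Trat1 and Retnlb are at 100 in both DMSO sets and 0 in both dTAG sets.

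Between DMSO and dTAG, the share of the gene body in domains differed in opposite directions along the locus. It was 100 percentage points higher in mESC dTAG for Dppa4 and Dppa2, and 47.6 points higher in 2CLC dTAG for Dppa4. Among the flanking genes it was higher in dTAG in both states for Dzip3 (26.7 points in mESCs and 21.4 in 2CLCs) and Cip2a (22.2 and 97.4). It was lower in dTAG in both states for Nectin3, Morc1, Trat1, Retnlb, Myh15, Ift57 and Cd47. For Gm5485 and Retnlg it was the same in both mESC sets and 100 points lower in 2CLC dTAG, and for Retnla it was the same throughout.

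Promoter sequences, 300 bases around the RefSeq start (mm10), were at hand for 10 of the 14 genes, and not for Dppa2, Dppa4, Morc1 and Retnlb. Those of Cip2a and Myh15 are shown because Cip2a shared the pattern of Dppa2, whereas Myh15 was in domains in all 4 sorted sets. Capitals mark each CG dinucleotide.
Cip2a promoter, chr16:48993938-48994237, plus strand: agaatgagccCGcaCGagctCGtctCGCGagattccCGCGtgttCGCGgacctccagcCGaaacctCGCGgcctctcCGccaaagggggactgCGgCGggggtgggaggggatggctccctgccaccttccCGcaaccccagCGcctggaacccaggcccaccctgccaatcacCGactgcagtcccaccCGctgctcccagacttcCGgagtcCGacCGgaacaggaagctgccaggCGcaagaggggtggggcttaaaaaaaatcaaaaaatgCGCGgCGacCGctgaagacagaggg
Myh15 promoter, chr16:49057150-49057449, plus strand: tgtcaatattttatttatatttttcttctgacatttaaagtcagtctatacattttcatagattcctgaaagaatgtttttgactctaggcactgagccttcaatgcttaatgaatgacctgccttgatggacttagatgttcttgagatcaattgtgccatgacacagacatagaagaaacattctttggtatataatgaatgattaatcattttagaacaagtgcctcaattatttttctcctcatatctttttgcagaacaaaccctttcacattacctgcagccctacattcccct
The Cip2a promoter holds 27 CG dinucleotides at 65.7% GC and the Myh15 promoter 0 at 33.7% GC. Among the 32851 mouse promoters of the same length the median was 7, and 5.43% had none. Retnla, the other flanking gene in domains in all 4 sorted sets, has 2. Cd47, in domains in none, has 35 or 36 at its 2 listed starts. The Cd47 promoters, from chr16:49855404, lie right of its GENCODE start at 49800533, in a stretch also outside domains in all 4 sorted sets. The other promoters at hand were mixed. Nectin3 (40) and Ift57 (25) had starts in domains in 2 and 1 of the sorted sets. Gm5485 and Trat1 (1 each) were in domains in 1 and 2, Retnlg (4) in 3 and Dzip3 (21 or 22) in 1. This is a description of few genes, and H3K9me2 over a promoter was not measured at this scale.

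The 70 kb over which the left edges of the 4 sorted sets were spread differed in base composition from the flanks. Its GC content was 43.8%, against 40% in the 0.5 Mb to the left, 40.8% in the 0.5 Mb to the right and 40.9% over chromosome 16. It held 9.93 CG dinucleotides per kb, against 6.6, 7.66 and 7.95. Repeat-masked bases made up 42.7%, against 52% to the left and 34.9% to the right. In single bins of 5 kb the GC content ranged from 41.6% to 45% over the 14 bins. Over chromosome 16 the median GC content of bins was 44.6% where no sorted set had a domain and 38.1% where all 4 had one, and the median of the 14 bins was 43.9%. The median share of repeat-masked bases was 23.4% where no sorted set had a domain, 33.4% where all 4 had one and 43.1% in the 14 bins. The 14 bins were thus nearer to bins without domains in GC content and above both kinds of bin in repeat content. Stretches of 50 bases that occur more than once on the chromosome, where reads are hard to place, made up 3.72% of the 70 kb, against 16.5% in the 0.5 Mb to the left.

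**Figure D5:**
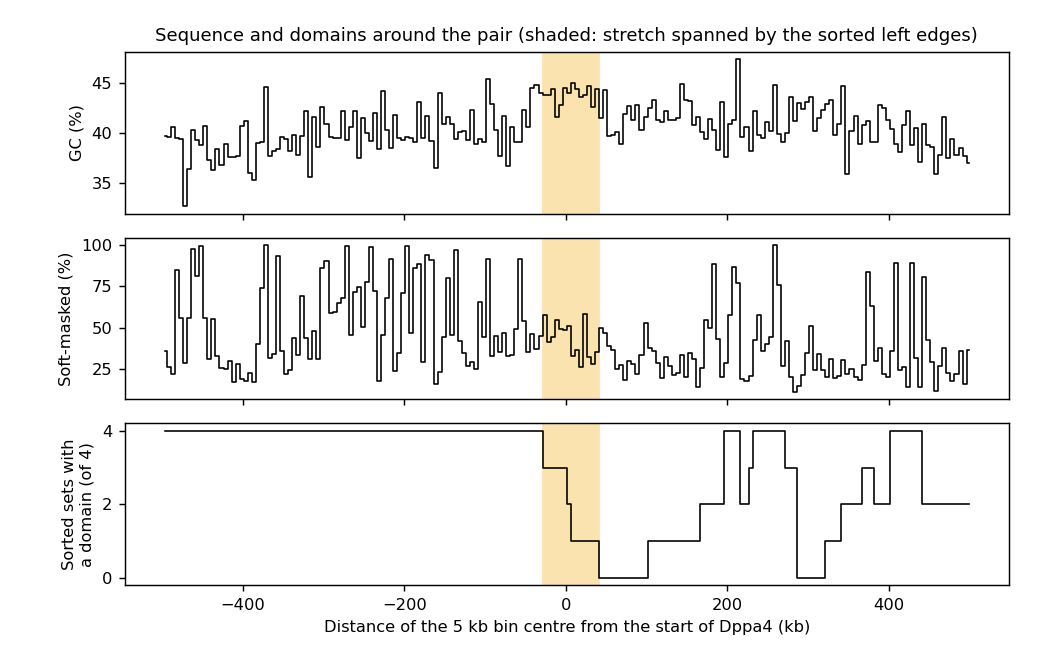
GC content in percent (top), repeat-masked bases in percent (middle) and the number of sorted sets with a domain (bottom) for each 5 kb bin, against its distance from the start of Dppa4 in kb. In the shaded 70 kb that hold the left edges of the sorted sets, GC ranged from 41.6% to 45% and the number of sets with a domain went from 3 to 1.

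A list of 34 genes encoded elsewhere was read in the same way. It held activators and genes of the 2-cell programme, genes listed as repressors, and 3 other DPPA genes. Of 13 activators and genes of the 2-cell programme, 8 (DMSO) and 9 (dTAG) were in domains in mESCs, 9 and 10 in 2CLCs, and 8 were in domains in all 4 sorted sets. Among all protein-coding genes the shares were 22.3% and 23.6% in mESCs, and 23.2% and 26.5% in 2CLCs. The 8 include Zscan4c, Zscan4d and Zscan4f, 2-cell genes that share 1 region of chromosome 7, and their starts lay at least 1081.7 kb inside domains. Gm21761 and Tcstv3, also among the 8, lie near each other and near Tcstv1 on chromosome 13. The 13 genes thus stand for fewer separate regions. Duxf3, the gene of the DUX activator, was in a domain in 2CLC DMSO only, 17.2 kb inside. Nelfa, a subunit of the negative elongation factor, was inside in both dTAG sets and outside in both DMSO sets. Duxf3 and the Zscan4 and Tcstv genes belong to families of near-identical copies, so reads cannot be placed among the copies with certainty.

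Of 18 genes listed as repressors of the 2-cell state, 2 were in domains in mESC dTAG and 0 in each of the other 3 sorted sets. The shares of all genes were 23.6% in mESC dTAG and 22.3% to 26.5% in the others. The 18 include Zfp462 and Wiz, reported recruiters of EHMT2. The paper ties ZFP462 to germ layer genes and found 2-cell-like genes largely unaffected by its loss. Neither list was tested against these shares. The 2 were Setdb1, an H3K9 methyltransferase, and Zmym2, a zinc finger protein, and both had the pattern of Dppa2. Each was close to an edge. Setdb1 lay 2.82 kb inside in mESC dTAG and 2.18 kb outside in 2CLC dTAG, and Zmym2 lay 4.42 kb inside and 0.582 kb outside. Dppa2 lay deeper inside in mESC dTAG (20.9 kb) and further outside in 2CLC dTAG (14.1 kb). Of the other DPPA genes, Dppa3 and Dppa5a lay at least 171.7 kb from a domain in each sorted set, and Dppa1 was inside in mESC DMSO only, by 5.51 kb. Dppa1 thus had the reverse of the pattern of Dppa4.

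In the unnamed set the left domain (chr16:46640218-48280215, 1640 kb) ended 3.52 kb before the start of Dppa4, between the mESC DMSO and 2CLC DMSO edges. The next domain began 5.49 kb past the end of Dppa2, so that the pair lay in a domain-free interval of 45 kb, the narrowest of the 5 lists. Both genes had 0% of their length in domains, as in mESC DMSO. Of the 12 flanking genes 10 had starts in domains, the 2 others being Dzip3 and Cip2a. The unnamed set covered 90.5% of the window and 62.6% of the genome, against 66.7% to 86.3% and 46.3% to 53.7% in the sorted sets. Its bins lie on another grid, so its edges cannot match those of the sorted sets to the base.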

How the data were processed

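H3K9me2 ULI-NChIP libraries (14 immunoprecipitation, 14 input) were processed by the authors as follows. Reads were aligned to mm10 with STAR in a setting that keeps multi-mapping reads, duplicates were removed with Picard, and high-signal regions were excluded. Coverage was scaled to genome content without chromosomes X and M, averaged in 10 kb windows at 5 kb steps and expressed as the log2 ratio of immunoprecipitate over input. Domains were seeded at bins above an upper percentile and extended until a bin fell below a lower one. Whether replicates were pooled, and whether percentiles were set per condition, is not given in the sources used here. Both could move an edge: with percentiles set per condition, a genome-wide drop of the mark would not appear as lost domains. The submitters' processing notes name STAR 2.7.10, Picard 2.26.0, SAMtools 1.14, deepTools 3.5.1, bedtools 2.30.0 and R 4.1.2.

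The deposited files used here hold domain start and end positions, with a score of 0 throughout. Positions were read with Python 3.11.15 and numpy 2.4.6 and figures were drawn with matplotlib 3.10.9. A gene was counted as in a domain when its GENCODE M21 start base was. Functions were tested on simulated domains. Sequence came from the GRCm38.p6 assembly and promoters from RefSeq. Genes named were Dppa2, Dppa4, each protein-coding gene starting within 2 Mb, the list of 34 genes, and for each member the 5 genes most like it by edge distance. The members and lists were chosen with earlier results of these data known. Alternatives were a minimum domain width, joined domains, edges moved by 1 bin, gene body in place of start, smaller flanks, chromosome 16 alone and, added after seeing the data, RefSeq starts. Replicate numbers in the labels were not used, because each condition is 1 list.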

Additional observations from a re-analysis of the deposited data

Results flagged for a closer look

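The domain-free interval that borders or holds Dppa4 and Dppa2 differed between DMSO and dTAG in opposite directions in the 2 cell states. The interval held both genes in mESC DMSO, began inside Dppa4 in both 2CLC sets and lay past both genes in mESC dTAG. Its width was 195 kb in mESC DMSO and 155 kb in mESC dTAG, a difference (dTAG minus DMSO) of -40 kb. In 2CLCs it was 100 kb with DMSO and 190 kb with dTAG, a difference of 90 kb. With domains under 50 kb dropped the contrast was gone: the difference was 85 kb in mESCs and 115 kb in 2CLCs, in the same direction. With 1 list per condition the difference between the states was not tested. The 2CLC value came mostly from the right end of the interval, which lay 95 kb further right in dTAG, whereas the left end lay 5 kb further right. In mESCs the left end lay 70 kb further right, before Dppa4 with DMSO and past Dppa2 with dTAG.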

How the results depend on the processing

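For Dppa2, mESC dTAG was the only sorted set with a domain under each alternative run, the RefSeq start (added after seeing the data) included. This outcome was fixed by the distances, since no edge was nearer to the Dppa2 start than 14.1 kb and its body was covered over 100% or 0%. The gene was also chosen on this pattern, so nothing is read from it. Dppa4 was in 3 sorted sets and in 2 when domains were trimmed by 1 bin or 50% of the gene body was required, and 2CLC DMSO was the set lost. Of 94 alternatives 60 left the value within its margin, 33 moved it and 1 reversed it. For Dppa4 and Dppa2 the margin was an unchanged list of sorted sets. It was 1.5 times for other counts, less than 1 bin for the interval and the 95% Wilson interval for a share. The Wilson intervals took 5 kb bins or genes of 1 list as units. These share domains and are not independent, so the intervals set a margin only and measure no spread. When domains under 50 kb were dropped, the domain-free interval was 280 kb in mESC dTAG and 215 kb in 2CLC dTAG, so that its difference (dTAG minus DMSO) went from -40 kb to 85 kb in mESCs, a reversal, and from 90 kb to 115 kb in 2CLCs. Under the same rule the window was covered over 61.8% and 63.1%, and 3 flanking starts were in domains in mESC dTAG. With flanks of 1 Mb the covered share was 79.9% in mESC dTAG and 74% in 2CLC dTAG, and with 0.5 Mb it was 75.4% in mESC DMSO, 79.2% in 2CLC DMSO and 62.4% in 2CLC dTAG. Extending domains by 1 bin put 6 flanking starts in domains in 2CLC dTAG. The share of all starts in domains, in the order mESC DMSO, mESC dTAG, 2CLC DMSO and 2CLC dTAG, was 21.8%, 21%, 22.5% and 23% with domains of at least 50 kb, 20.4%, 20.6%, 21.3% and 22.7% with trimmed domains, 25.3%, 26.6%, 25.9% and 30.6% with extended domains, and 25.8%, 28.3%, 29.7% and 29.2% on chromosome 16 alone. With 50% of the gene body it was 23.1% in mESC DMSO, 22.5% in mESC dTAG and 25% in 2CLC dTAG. The alternatives change what is counted, and no further cause was tested. No paired analysis was possible because each condition is 1 list without values per sample, and for the same reason no replicate could be left out. The depth of the libraries behind the lists is unknown, and edges are further limited by the 5 kb step and by the 10 kb windows, which share signal between neighbouring bins.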
